A study of Mus musculus with 4 samples.

Results

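The genes described here encode the proteins of the mitochondrial ribosome, measured in Hepa1-6 cells, a mouse hepatoma line, after depletion of the chromatin remodeler Chd1. Members were all genes whose symbol is Mrpl or Mrps followed by a number and at most 1 letter, with pseudogenes left out. This rule found 78 of the 23521 genes in the table, 49 with an Mrpl and 29 with an Mrps symbol, and it used no measured value. The Chd1KD cells (n = 2 libraries) carried a lentiviral shRNA against Chd1, and the Control cells (n = 2), whose genotype the labels give as wild type, carried a lentivirus with a scrambled shRNA. All 4 cultures were grown in DMEM plus 10% FBS and selected for 3 weeks in 4 μg/ml puromycin, and poly(A) RNA was sequenced. The labels do not say how many hairpins were used, nor whether replicates were transduced separately, so the tests rest on a spread between libraries that may be technical.

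Mitochondrial ribosomes translate the few proteins encoded by mitochondrial DNA, all of them core subunits of the respiratory chain and of ATP synthase. Their rRNAs are transcribed in the organelle, whereas every ribosomal protein is encoded in the nucleus, made in the cytosol and imported. Compared with the bacterial ribosome, the mammalian particle has less rRNA and a set of additional proteins, and several members are mutated in human combined oxidative phosphorylation deficiencies. The liver is rich in mitochondria. The symbols do not always follow the subunit: Mrps30 and Mrps18a sit in the large subunit of mammalian particles, and Mrps36 is a subunit of the 2-oxoglutarate dehydrogenase complex rather than of the ribosome. By textbook assignment the members comprised 51 large-subunit proteins, 26 small-subunit proteins and Mrps36.

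The promoters of these genes were inspected for the letters recognised by the 3 factors best known at nuclear genes of mitochondrial function. These were GCATGCG for NRF1 (nuclear respiratory factor), CCGGAAG for ETS proteins such as GABP, and ATGGCGG for YY1. Both strands were searched in RefSeq windows of 300 bases (GRCm38.p6), from 250 before to 50 after the start site used for a gene. That site can lie inside the outer bounds of the gene. The Mrpl22 window began at 58171414 and the gene at 58170043, and the Mrps23 window at 88204138 and the gene at 88194106. Motif positions below refer to the site used. The 5 windows below show how the motifs were arranged in Mrpl27, the member with the lowest fold change, Mrps12, another member among the lowest, Mrpl33, among the highest, Mrps21, the most abundant, and Mrpl22, the member that held all 3 motifs. Mrpl22 was chosen after its sequence was seen. Capitals mark the matches on either strand.
Mrpl27, chr11:94653541-94653840, plus strand: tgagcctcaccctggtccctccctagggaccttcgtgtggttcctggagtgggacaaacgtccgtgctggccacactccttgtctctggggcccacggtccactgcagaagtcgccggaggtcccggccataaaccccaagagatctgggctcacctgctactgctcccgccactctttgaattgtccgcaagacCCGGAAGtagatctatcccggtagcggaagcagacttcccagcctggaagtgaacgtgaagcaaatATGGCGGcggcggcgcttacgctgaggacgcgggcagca
Mrps12, chr7:28741772-28742071, minus strand: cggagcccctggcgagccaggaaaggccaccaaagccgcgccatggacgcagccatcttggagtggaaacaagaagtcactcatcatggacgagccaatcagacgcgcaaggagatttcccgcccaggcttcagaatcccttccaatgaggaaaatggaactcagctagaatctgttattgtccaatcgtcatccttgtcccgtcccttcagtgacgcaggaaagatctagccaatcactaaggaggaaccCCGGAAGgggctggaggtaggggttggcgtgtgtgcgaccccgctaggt
Mrpl33, chr5:31613701-31614000, plus strand: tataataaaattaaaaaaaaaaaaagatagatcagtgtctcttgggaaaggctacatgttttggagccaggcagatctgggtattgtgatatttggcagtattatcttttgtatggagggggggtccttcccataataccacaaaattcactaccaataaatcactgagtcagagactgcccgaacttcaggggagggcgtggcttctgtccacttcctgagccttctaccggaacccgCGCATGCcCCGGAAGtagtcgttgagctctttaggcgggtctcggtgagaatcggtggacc
Mrps21, chr3:95871465-95871764, minus strand: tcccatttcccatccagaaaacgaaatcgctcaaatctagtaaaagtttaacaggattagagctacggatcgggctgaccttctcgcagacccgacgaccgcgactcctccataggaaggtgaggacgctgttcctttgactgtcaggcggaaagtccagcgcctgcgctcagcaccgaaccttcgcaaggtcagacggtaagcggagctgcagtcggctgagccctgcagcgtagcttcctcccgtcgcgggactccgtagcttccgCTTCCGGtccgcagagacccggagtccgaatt
Mrpl22, chr11:58171414-58171713, plus strand: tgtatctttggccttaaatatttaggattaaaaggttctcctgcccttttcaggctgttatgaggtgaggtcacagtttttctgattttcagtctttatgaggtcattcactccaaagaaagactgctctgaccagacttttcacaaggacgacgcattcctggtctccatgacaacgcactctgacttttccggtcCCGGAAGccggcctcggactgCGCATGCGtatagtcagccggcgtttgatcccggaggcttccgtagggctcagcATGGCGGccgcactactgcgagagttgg
Mrpl27 held an ETS match upstream of its start and a YY1 match downstream of it. Mrps12 and Mrps21 held an ETS match just past the start, in opposite orientations. In Mrpl33 an NRF1 and an ETS match lay side by side across the start. In Mrpl22 an ETS match was followed by the palindromic centre of the NRF1 element, where a forward and a reverse match overlapped, and by a YY1 match.

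Windows were found for 69 of the 78 members, and at least 1 of the 3 motifs was present in 36 of them (52.2%). The same held for 33.1% of the 8133 windows of other tested genes and for 15.2% of all 27025 windows. The ETS letters were the most frequent, in 25 members (36.2%), against 20.9% of other tested genes and 9.12% of all windows. The YY1 letters were in 13 members (18.8%), against 9.39% and 4.19%, and the NRF1 letters were in 8 (11.6%), against 7.27% and 3.64%. The member windows had a median GC content of 58.3% and 21 CpG dinucleotides, against 61.7% and 22 in other tested genes. These matches are descriptions of letters and show neither binding nor its absence. In 10 of the 13 members with the YY1 letters, their ATG was an annotated start codon (GENCODE M21), followed by the letters GCGG. This was so in 227 of 764 other tested genes with the letters (29.7%).

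**Figure D1:**
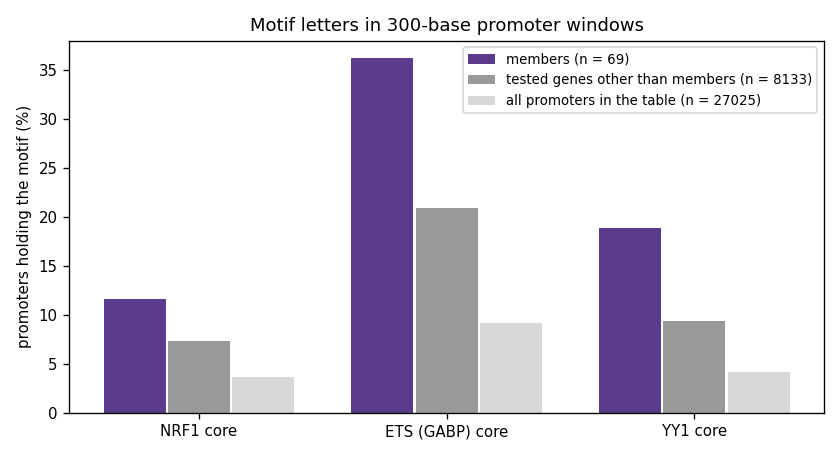
Share of 300-base promoter windows that hold the letters of each motif on either strand, in percent, for 69 members, 8133 other tested genes and all 27025 windows. Members lead in each of the 3 motifs, from 11.6% for NRF1 to 36.2% for ETS.

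Members whose promoter held any of the motifs had a median log2 fold change (Chd1KD over Control) of -0.03 (n = 36), against -0.05 in those without (n = 33). For the YY1 letters the medians were -0.08 with (n = 13) and -0.03 without (n = 56), and for NRF1 0.03 with (n = 8) and -0.05 without (n = 61). For ETS they were -0.02 (n = 25) and -0.05 (n = 44).

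Facing start sites were common. By GENCODE M21 gene ends, 33 of the 78 members (42.3%) had the start of a protein-coding gene on the opposite strand within 1000 bases of their own, against 18.2% of 9682 other tested protein-coding genes. Several partners also serve mitochondria. Mrpl36 faces Ndufs6 and Mrpl47 faces Ndufb5, both encoding subunits of respiratory complex I. Mrps12 faces Sars2, the mitochondrial seryl-tRNA synthetase, and Mrpl43 faces Twnk, the helicase of mitochondrial DNA. Mrpl46 and Mrps11 face each other, and so place a large-subunit and a small-subunit gene head to head.

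Chd1 mRNA itself was 10.4 and 11.3 RPKM in the Chd1KD libraries, against 21.4 and 22.5 RPKM in the Control libraries (RPKM, a level scaled to transcript length and to the mapped reads of a library, summed here over the transcripts of a gene). The groups did not overlap, the ratio was 0.494, and Chd1 fell (log2 fold change -0.96, SE 0.07, limma, adjusted p = 0.0125). Of 10 hepatocyte and hepatoma markers, 7 reached 1 RPKM, among them Alb, Afp and Trf, and Ttr and Serpina1a were listed at 0 in all 4 libraries. A listed 0 can be a failed estimate, and Gtpbp10, a mitoribosome assembly gene, was also listed at 0 throughout. Of 13 matched macrophage, endothelial, fibroblast and lymphocyte markers none reached 1 RPKM, and 8 were listed at 0 throughout. Alb, the serum albumin gene, varied between replicates, at 42.2 and 53.0 RPKM in Chd1KD and 18.6 and 55.6 RPKM in Control, with Control replicate 1 lowest, and its part in the results was not tested. In bulk RNA, fewer expressing cells and less RNA per cell cannot be told apart. The summed RPKM of all rows was 466950 and 459381 in the Chd1KD libraries and 484490 and 462332 in the Control libraries, and sequencing depth was unknown.

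Most mitochondrial ribosomal protein mRNAs stood above the median tested gene in level. Every member passed the filter of a mean of 1 RPKM over the 4 libraries, so all 78 were tested, and 74 were at or above 10 RPKM. Their median level was 43.8 RPKM, against 12.9 RPKM over all 10209 tested genes, and the middle member ranked at the 81.7th percentile of tested genes. Together they summed to 3762 and 3661 RPKM in the Chd1KD libraries, against 3977 and 3655 RPKM in the Control libraries. The group means were 3712 ± 71.6 RPKM in Chd1KD and 3816 ± 228 RPKM in Control (SD, n = 2 each), a ratio of 0.973. The Chd1KD values lay between those of the Control libraries, so the difference between the means was smaller than that between the Control replicates. As a share of all RPKM the sum was 0.806% and 0.797% in Chd1KD and 0.821% and 0.790% in Control.

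Levels differed 45.8-fold between the highest and the lowest member, on the per-length RPKM scale. Mrps21, the counterpart of a small bacterial protein of the small subunit, was highest, with 234.1 and 235.4 RPKM in the Chd1KD libraries and 244.1 and 239.2 RPKM in the Control libraries. Mrpl12, which forms the flexible stalk that recruits translation factors, followed with 159.7 and 162.6 RPKM in Chd1KD and 176.7 and 156.5 RPKM in Control. For Mrps21 the groups did not overlap but differed by a ratio of only 0.972, and for Mrpl12 the Control libraries enclosed the Chd1KD libraries. Mrpl13, a core large-subunit protein with a bacterial counterpart, had 136.2 and 135.9 RPKM in Chd1KD and 149.9 and 145.6 RPKM in Control. Mrpl52, a mitochondria-specific protein, had 113.8 and 120.4 RPKM in Chd1KD and 118.7 and 112.5 RPKM in Control, and Mrpl30, a counterpart of a bacterial large-subunit protein, had 91.1 and 90.5 RPKM in Chd1KD and 95.5 and 86.1 RPKM in Control. Mrpl13 was below every Control value in both Chd1KD libraries, whereas Mrpl52 and Mrpl30 overlapped.

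At the low end stood 4 large-subunit genes. Mrpl41, a mitochondria-specific protein, had 5.70 and 5.17 RPKM in Chd1KD and 4.80 and 5.16 RPKM in Control, and Mrpl57 had 5.92 and 6.09 RPKM in Chd1KD and 6.19 and 6.04 RPKM in Control. Mrpl35 had 8.47 and 8.16 RPKM in Chd1KD and 9.57 and 8.88 RPKM in Control. Mrpl1, which forms the stalk on the side where spent tRNA leaves, had 8.72 and 9.20 RPKM in Chd1KD and 10.6 and 8.35 RPKM in Control. Of the 4, the groups overlapped for Mrpl57 and Mrpl1. None of the 10 genes named for level other than Mrpl20, which is described below, reached an unadjusted p under 0.05 (limma). The median levels of large-subunit genes (43.5 RPKM, n = 51) and small-subunit genes (44.1 RPKM, n = 26) were close.

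**Figure D2:**
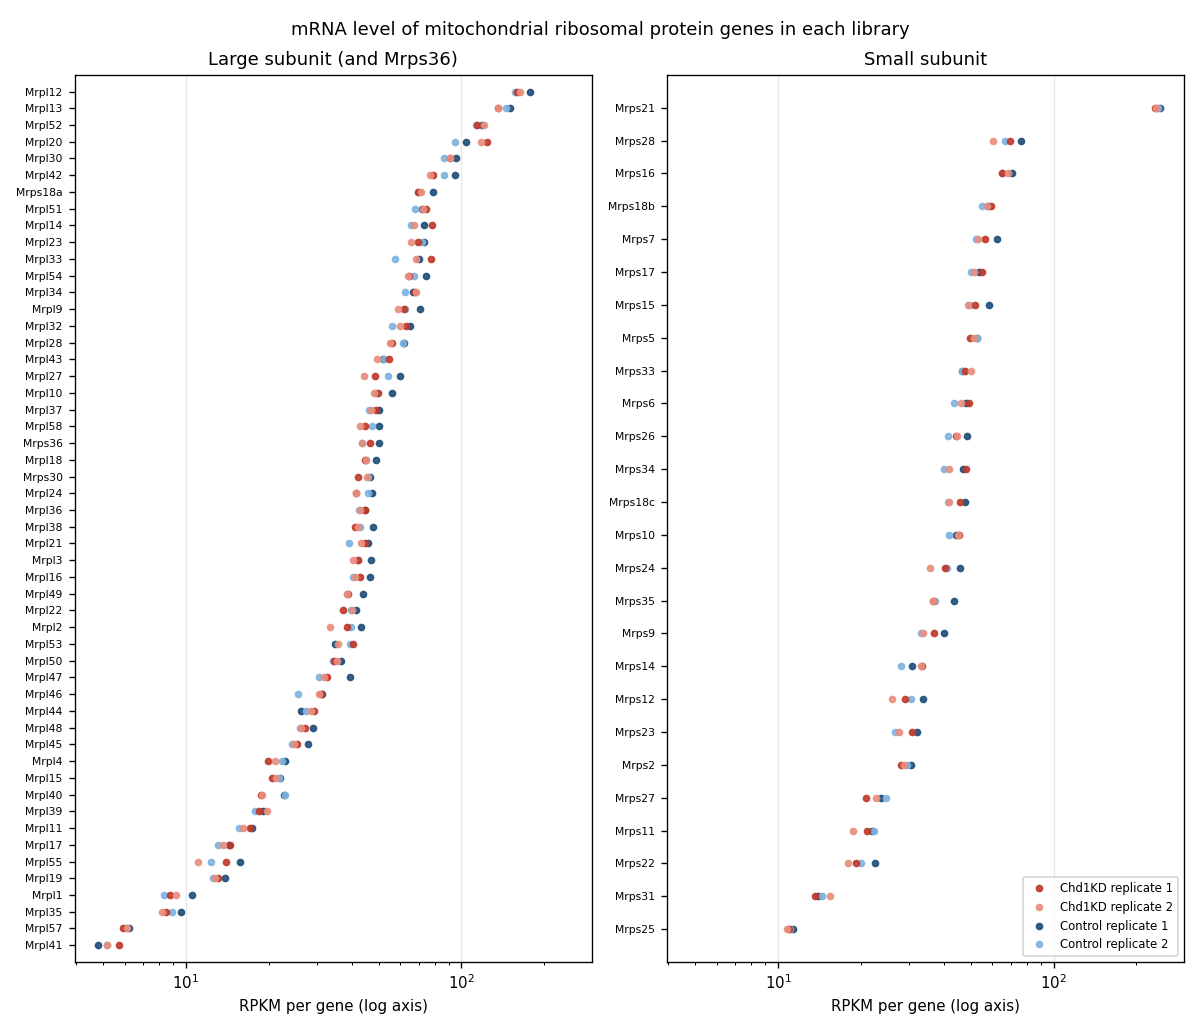
RPKM per gene in each of the 4 libraries, on a log axis, for the 51 large-subunit genes with Mrps36 (left) and the 26 small-subunit genes (right), ordered by mean level. The 4 points of a gene lie near each other relative to the range between genes, from about 5 RPKM for Mrpl41 to 238 RPKM on average for Mrps21.

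The comparison of Chd1KD with Control asked whether lowering Chd1 altered any of these mRNAs. No member passed the test over all genes (limma on log2(RPKM + 1), adjusted p under 0.05), where 47 of the 10209 tested genes (0.46%) did. The smallest adjusted p among members was 0.104. A count of 0 does not show that the members did not differ, since with 2 libraries a group differences as small as theirs are hard to call. At an unadjusted p under 0.05 (limma) stood 10 of the 78 members (12.8%), where 18.5% of all tested genes did. The 10 divided into 2 with higher and 8 with lower values in Chd1KD, against 7.24% and 11.3% of all tested genes in those directions. Member fold changes ran from -0.29 to 0.28 on the log2 scale, and their median was -0.05, where all tested genes had -0.02. A negative value was found for 53 of 78 members (67.9%), against 56.5% of all tested genes. The median size of the fold change was 0.07 in members and 0.09 over all tested genes.

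The values of single libraries gave the same picture. Both Chd1KD libraries lay outside the Control range for 34 of 78 members (43.6%), against 51.8% of all tested genes. They were above it for 8 members (10.3%, against 21.3% of all tested genes) and below it for 26 (33.3%, against 30.5%). The 95% interval of the fold change, unadjusted for the number of genes, lay within 1.5-fold in either direction for all 78 members, as it did for 9626 of the 10209 tested genes. The lowest bound of any member was -0.48 and the highest 0.45 on the log2 scale.

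**Figure D3:**
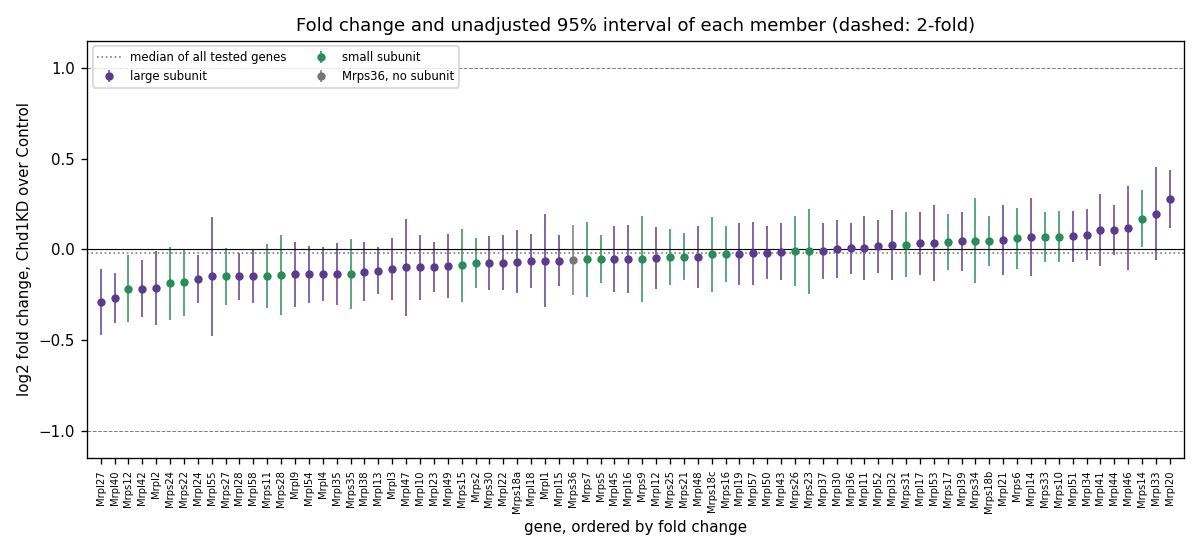
Log2 fold change of each of the 78 members, Chd1KD over Control, with its unadjusted 95% interval (limma), ordered from Mrpl27 (-0.29) to Mrpl20 (0.28). Dashed lines mark a 2-fold difference, the dotted line marks the median of all tested genes (-0.02), and no interval reaches a dashed line.

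Among large-subunit genes, Mrpl40 had the smallest p. It encodes a mitochondria-specific protein of the central protuberance, the crest of the subunit that faces the small subunit, and lies on chromosome 16 from 18872018 to 18876637 (GRCm38.p6). It had 18.7 and 18.9 RPKM in the Chd1KD libraries, against 22.8 and 22.9 RPKM in the Control libraries. Replicates agreed closely and the groups were well apart, with Chd1KD at 0.824 of the Control mean (limma, log2 fold change -0.27 with an SE of 0.06, adjusted p = 0.104). Its fold change moved little when any 1 library was left out, from -0.27 to -0.26, although it did not pass under any alternative. Hira, the histone chaperone gene that faces Mrpl40 with starts 175 bases apart, had 14.5 and 14.0 RPKM in Chd1KD and 14.3 and 14.1 RPKM in Control. Mrpl40 also overlaps Gm28539, a protein-coding gene model on the opposite strand.

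Mrpl27, counterpart of the bacterial protein whose tail reaches the peptidyl transferase centre, had 48.6 and 44.2 RPKM in Chd1KD, against 59.8 and 53.9 RPKM in Control. The groups did not overlap, with Chd1KD at 0.816 of the Control mean (limma, log2 fold change -0.29 with an SE of 0.08, adjusted p = 0.139). The gene (chromosome 11, 94653770 to 94661932) overlaps Eme1, a DNA repair endonuclease subunit on the opposite strand, and has an annotated pseudogene. Eme1 had 7.84 and 8.29 RPKM in Chd1KD, against 11.4 and 10.6 RPKM in Control (ratio 0.735, log2 fold change -0.40, limma, adjusted p = 0.0802). Since the strand setting of the counting is not given in the sources used here, reads from the overlap or the pseudogene cannot be told apart from those of Mrpl27.

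Further large-subunit genes were lower in Chd1KD by smaller steps. Mrpl42, a mitochondria-specific protein, had 78.7 and 76.9 RPKM in Chd1KD, against 95.1 and 86.2 RPKM in Control (ratio 0.858). Mrpl2, counterpart of a bacterial protein next to the catalytic centre, had 38.4 and 33.2 RPKM in Chd1KD, against 43.4 and 39.8 RPKM in Control (ratio 0.862). In both genes the groups did not overlap, but the gap between them was smaller than the larger difference between replicates. Mrpl24, which sits near the mouth of the polypeptide exit tunnel, had 41.3 and 41.5 RPKM in Chd1KD, against 47.3 and 45.7 RPKM in Control (ratio 0.891). Mrpl28 had 56.1 and 54.9 RPKM in Chd1KD, against 61.8 and 61.3 RPKM in Control (ratio 0.901). The replicates of Mrpl24 and Mrpl28 were close, and none of these 4 genes passed (limma, adjusted p from 0.169 to 0.254).

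Mrpl20 had the highest fold change and ran against most of the group. Its bacterial counterpart binds rRNA early in assembly of the large subunit, and the gene lies on chromosome 4 from 155802878 to 155808831. It had 123.9 and 117.3 RPKM in the Chd1KD libraries, against 103.9 and 94.9 RPKM in the Control libraries. Both Chd1KD values were above both Control values, with means of 120.6 ± 4.7 RPKM in Chd1KD and 99.4 ± 6.4 RPKM in Control (SD, n = 2 each). The ratio was 1.21 (limma, log2 fold change 0.28 with an SE of 0.07, adjusted p = 0.121). Without Control replicate 1 it was called (log2 fold change 0.34, limma, adjusted p = 0.0486), whereas without Chd1KD replicate 1 the adjusted p was 0.485.

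The other large-subunit genes with the most positive values were Mrpl33, Mrpl46, Mrpl44 and Mrpl41. Mrpl33, counterpart of a small bacterial protein, had 77.6 and 68.4 RPKM in Chd1KD, against 70.3 and 57.3 RPKM in Control, and the groups overlapped. Mrpl46, of the central protuberance, had 31.0 and 30.3 RPKM in Chd1KD, against 31.2 and 25.4 RPKM in Control, and also overlapped. Mrpl44, which has an RNase III-like fold and lies at the polypeptide exit, had 29.1 and 28.5 RPKM in Chd1KD, against 26.2 and 27.2 RPKM in Control. The groups did not overlap for Mrpl44, nor for Mrpl41, whose nearest values almost touched (5.17 RPKM in Chd1KD and 5.16 RPKM in Control). None of these 4 genes reached an unadjusted p under 0.05 (limma).

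Among small-subunit genes, Mrps12 had the most negative fold change. It is the counterpart of the bacterial protein at the decoding site, where codon and anticodon pair, and it had 28.9 and 25.99 RPKM in Chd1KD, against 33.5 and 30.5 RPKM in Control (ratio 0.856, log2 fold change -0.22, SE 0.08, limma, adjusted p = 0.214). Mrps24, counterpart of a bacterial protein at the mRNA entry, had 40.4 and 35.6 RPKM in Chd1KD, against 45.8 and 41.1 RPKM in Control (ratio 0.876). In Mrps12 and Mrps24 every Chd1KD value was below every Control value, but the nearest values of the groups were closer than the replicates. Mrps14, counterpart of a protein of the bacterial small-subunit head, was higher, with 33.2 and 33.0 RPKM in Chd1KD, against 30.7 and 28.1 RPKM in Control (ratio 1.13, log2 fold change 0.17, SE 0.07, limma, adjusted p = 0.244).

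The medians of the structural classes lay close together, and the differences between classes were not tested. Of the 51 large-subunit genes, 1 was higher and 7 were lower at an unadjusted p under 0.05 (limma; 15.7%, against 18.5% of all tested genes), with a median log2 fold change of -0.05. Of the 26 small-subunit genes, 1 was higher and 1 lower (7.69%), with a median of -0.04. Large-subunit proteins with a bacterial counterpart had a median of -0.06 (n = 29) and mitochondria-specific ones of -0.02 (n = 21). In the small subunit the medians were -0.05 (n = 16) and -0.01 (n = 10). A place in the large subunit was assigned to only some members, so the lists that follow may be incomplete. The 5 assigned to the stalk that recruits translation factors (Mrpl10, Mrpl11, Mrpl12, Mrpl53 and Mrpl54, not Mrpl1) had log2 fold changes from -0.14 to 0.03. The 7 assigned to the polypeptide exit ranged from -0.16 to 0.11. The 6 assigned to the central protuberance, which include Mrpl27, Mrpl40 and Mrpl46, ranged from -0.29 to 0.12. Mrps36, the member that is no ribosomal subunit, had 46.5 and 43.5 RPKM in Chd1KD, against 50.3 and 43.6 RPKM in Control.

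The members also varied together between the Control libraries. Control replicate 1 held the highest of the 4 values for 54 of 78 members (69.2%), against 37.5% of all tested genes. It exceeded Control replicate 2 in 68 members (87.2%, against 59.3% of all tested genes), with a median log2 difference of 0.13 in members and 0.03 over all tested genes. Within Chd1KD, replicate 1 exceeded replicate 2 in 53 members (67.9%, against 52.1% of all tested genes), with a median difference of 0.04 in members and 0.0052 over all tested genes. The mean of the Chd1KD libraries was below Control replicate 1 in 66 of 78 members, where this held for 5947 of the 10209 tested genes. It was below Control replicate 2 in 35 members, where this held for 5287 tested genes. Without Control replicate 1 the median log2 fold change of the members was 0.03 and 35 were negative. Without Control replicate 2 the median of the members was -0.11 and 66 were negative. Over all tested genes the medians were -0.0075 without Control replicate 1 and -0.034 without Control replicate 2.

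**Figure D4:**
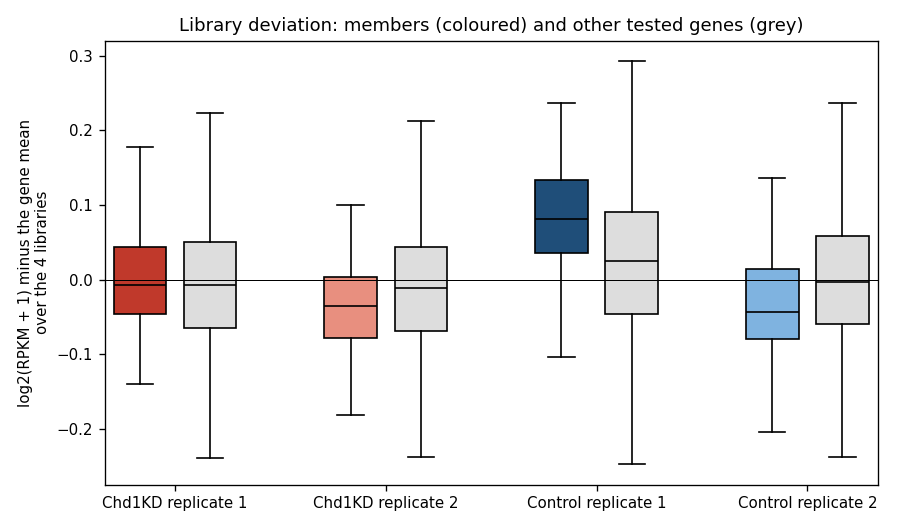
Deviation of each library from a gene's mean over the 4 libraries, in log2(RPKM + 1), for the 78 members (coloured) and 10131 other tested genes (grey). Boxes span the quartiles with the median as a line, whiskers reach 1.5 times the box height. Control replicate 1 has a member median of 0.08, and the other libraries lie between -0.04 and -0.01.

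Other groups of related role were set beside the members. The 76 cytosolic ribosomal protein genes had a median log2 fold change of -0.04, with 1 higher and 5 lower at an unadjusted p under 0.05 and none called (limma). The 36 complex I subunits had a median of -0.05, with 1 higher and 4 lower, and none called. The 17 mitochondrial tRNA synthetases had a median of -0.02, with 3 lower, and none called. The lead of Control replicate 1 was shared: it held the highest value for 69.7% of cytosolic ribosomal protein genes and 61.1% of complex I subunits, and for 52.9% of the synthetases. At an unadjusted p under 0.05 stood 7.89% of the cytosolic ribosomal protein genes, 13.9% of the complex I subunits and 17.6% of the synthetases, against 18.5% of all tested genes. The differences between these groups were not tested.

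Other genes of mitochondrial translation were read from 5 lists with 67 tested genes. None was called (limma), and 2 were higher and 8 lower at an unadjusted p under 0.05 (14.9%, against 18.5% of all tested genes). Of 5 mitoribosomal proteins with other symbols, Dap3, a GTP-binding protein of the small subunit, had 15.2 and 15.3 RPKM in Chd1KD, against 17.8 and 16.6 RPKM in Control. Chchd1, another small-subunit protein, had 99.3 and 96.9 RPKM in Chd1KD, against 92.7 and 81.3 RPKM in Control. The groups were separate in both genes, in opposite directions, and the list median was -0.01.

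Among 12 translation factors, the median log2 fold change was -0.09 and 8 were negative. Tsfm, the exchange factor of the mitochondrial elongation factor Tu, had 42.5 and 42.4 RPKM in Chd1KD, against 50.4 and 47.0 RPKM in Control (ratio 0.872, limma, adjusted p = 0.177). Among 27 assembly and membrane insertion factors, 21 were negative (77.8%, against 56.5% of all tested genes), with a median of -0.11. At an unadjusted p under 0.05 (limma), 2 were higher and 4 lower (22.2%, against 18.5% of all tested genes). Mtg1, a GTPase of large-subunit assembly, had 8.596 and 8.698 RPKM in Chd1KD, against 11.6 and 10.7 RPKM in Control (ratio 0.776, limma, adjusted p = 0.104). Eral1, a chaperone of the small-subunit rRNA, was higher, with 10.5 and 10.98 RPKM in Chd1KD, against 9.26 and 8.02 RPKM in Control (ratio 1.25, limma, adjusted p = 0.154). Trub2, a pseudouridine synthase, had 8.27 and 8.12 RPKM in Chd1KD, against 9.94 and 10.3 RPKM in Control (ratio 0.810, limma, adjusted p = 0.121). Tsfm, Mtg1, Eral1 and Trub2 each had groups that were fully separate.

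In the list of mitochondrial transcription and RNA handling, 8 of 15 genes were negative, with a median of -0.01. Polrmt, the mitochondrial RNA polymerase, had 6.53 and 6.72 RPKM in Chd1KD, against 7.68 and 7.82 RPKM in Control (ratio 0.855, limma, adjusted p = 0.204), and the groups did not overlap. Of 8 tested nuclear regulators of mitochondrial genes, none reached an unadjusted p under 0.05 (limma), and the median was -0.02. Nrf1, whose product binds the NRF1 letters shown above, had 9.98 and 11.1 RPKM in Chd1KD, against 11.2 and 11.8 RPKM in Control, and the groups did not overlap, though the nearest values were close. Myc, a regulator of ribosome production, had 63.7 and 59.2 RPKM in Chd1KD, against 67.6 and 67.1 RPKM in Control, and was below Control in both Chd1KD libraries.

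Reads of neighbouring genes may bear on 26 members, which overlap another protein-coding gene in GENCODE M21, 23 of them one on the opposite strand. Whether such reads were counted for these members was not tested. Among the members described by their values, these were Mrpl13, Mrpl14, Mrpl24, Mrpl27, Mrpl33, Mrpl40, Mrpl44, Mrpl46 and Mrps24. Of those named without values they were Mrpl36, Mrpl43, Mrpl47, Mrpl48, Mrpl53, Mrps11, Mrps18a and Mrps30. A further limit holds for 4 members with a pseudogene named after them (symbols with -ps), Mrpl23, Mrpl27, Mrpl48 and Mrps36. Pseudogenes under other names were not counted, and such pseudogenes overlap Mrpl17, Mrpl45, Mrpl48 and Mrps28. By these rules 50 members were free of both, Mrpl17, Mrpl45 and Mrps28 among them. Of the 50, 7 had an unadjusted p under 0.05 (limma, 14.0%, against 18.5% of all tested genes). None was called, and their median log2 fold change was -0.05. Mrpl14, which binds a silencing factor that limits subunit joining, overlaps the 5′ end of Tmem63b, a membrane channel gene that rose in Chd1KD. Tmem63b had 36.8 and 37.6 RPKM in Chd1KD, against 25.01 and 20.9 RPKM in Control (log2 fold change 0.68, limma, adjusted p = 0.0415). Mrpl14 itself had 78.3 and 67.2 RPKM in Chd1KD, against 73.1 and 65.4 RPKM in Control, and the groups overlapped.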

How the data were processed

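Poly(A) RNA of 2 Chd1KD and 2 Control libraries was measured, with groups and replicate numbers taken from the sample titles. The authors deposited RPKM values for 30582 RefSeq transcripts, per the file headers. TopHat 1.4.1 and Cufflinks 1.3.0 with mouse build mm10 appear in the submitters' processing notes, without settings. Counts were not used here, so depth is unknown. Transcripts were named through RefSeq (GRCm38.p6, 29999 rows) or GENCODE M21 (184 rows), leaving 399 rows (0.304% of RPKM) unnamed, and RPKM was summed per gene. The 10209 genes whose mean reached 1 RPKM entered limma 3.58.1 (R 4.3.3) as log2(RPKM + 1), using a variance trend and no covariate, with Benjamini-Hochberg adjustment over all of them. Fold changes of low genes are understated on this scale. The fit was tested on simulated data, where it recovered large changes and missed ones about as small as those of the members. In those data each gene varied independently, without the shifts between libraries that the members shared. With 2 libraries a group, the smallest two-sided p of an exact permutation test is 0.333, so none was run.

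The members and lists were chosen with earlier results of these data known. Members named are the 8 with the smallest p, the 6 highest and 6 lowest fold changes, and the 6 highest and 4 lowest levels. In other lists up to 3 genes with the smallest p are named. Mrpl14, Mrps36, Mrpl22 and the facing genes were named after their values were seen. Alternatives covered the pseudocount, filter, scaling, variance model, replicate block, most abundant transcript, threshold and each library left out.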

Additional observations from a re-analysis of the deposited data

How the results depend on the processing

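The median log2 fold change over the members stayed between -0.05 and -0.04 across the settings that kept all libraries. With 1 library left out it ran from -0.11 to 0.03, and it was positive without Control replicate 1 (35 of 78 members negative, against 53 with all libraries). The count of called members was 0 except under the replicate block (2, Mrpl20 with an adjusted p of 0.0396 and Mrpl27 with 0.0381, limma) and without Control replicate 1 (1, Mrpl20), so it ranged from 0 to 1 with 1 library left out. Members at an unadjusted p under 0.05 numbered 6 without a variance trend (17.98% of all tested genes), 19 under the replicate block (26.44%), and 3 to 29 with 1 library left out (10.24% to 24.18%). Over all genes, calls (limma) numbered 0 without a filter (15.62% at an unadjusted p under 0.05), 71 with a filter at a mean of 5 RPKM, 6 without a variance trend, 92 with a robust trend, 325 under the replicate block, 12 with the most abundant transcript, 205 at an adjusted p under 0.1, and 49 to 236 with 1 library left out. The deviations of same-numbered libraries correlated across genes at r = 0.22, and with 2 pairs and no label that ties them, the libraries share only a number. Chd1 kept its fold change (-0.96) without a filter but not its call (limma, adjusted p = 0.25). Of 286 values of 22 named members under the alternatives, 274 kept direction and side of the threshold. The sign turned for Mrpl57 under quantile normalization (0.0063) and for Mrpl1 with the most abundant transcript (0.0039). With 1 library left out it turned for Mrpl46 (-0.025 to 0.26), Mrpl12 (-0.13 to 0.042), Mrpl52 (-0.023 to 0.059), Mrpl30 (-0.072 to 0.076) and Mrpl1 (-0.22 to 0.091). Leaving out 1 library leaves a single one in its group, which is then assumed to vary like the others. The cause was not tested. Restricting the members to those free of overlapping protein-coding genes and of -ps pseudogenes, or leaving out Mrps36, were chosen after seeing the data and changed no call. Without read counts, no limit of detection can be given.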
